A study of Mus musculus with 11 samples.

Results

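The genes described here are a set of 10 that act on prenatal and early postnatal growth and are mostly imprinted, meaning that 1 parental copy is silenced: H19, Dlk1, Gpc3, Peg3, Mest, Plagl1, Cdkn1c, Grb10, Meg3 (printed as Gtl2 on the array design) and Ndn. They were chosen by name, as genes that decline after birth. Every probe whose printed or current symbol was one of them was taken. This gave 20 probes for the 10 genes among 41174 distinct probes on the array. All 10 genes were among the 15665 that were measured well enough to be tested. RNA came from whole livers of newborn mice on a hybrid 129 x C57BL/6 background. Controls carried only the Rosa26-lsl-NICD allele, a silent transgene for the intracellular domain of Notch, which signals without a ligand. Mutants carried that allele together with AFP-Cre, a Cre recombinase driven by the promoter of the fetal liver gene alpha-fetoprotein, which removes the block on the transgene. The groups held 2 control and 3 mutant samples at day 0, the day of birth, and 3 control and 3 mutant samples at day 2. Each sample was on 1 single-colour Agilent array. Because Cre was never present without the transgene, what Cre does and what NICD does cannot be told apart. Which cells had removed the block was not measured here.

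Imprinted genes sit in clusters in which a stretch of DNA methylated on only 1 parental chromosome decides which copy is read. As a broad rule the paternally read genes favour growth of the embryo and the maternally read ones hold it back. Dlk1, Peg3, Mest, Plagl1 and Ndn are read from the paternal chromosome, and H19, Meg3, Cdkn1c and, in most tissues, Grb10 from the maternal one. Gpc3, a cell surface proteoglycan that limits growth, lies on the X chromosome and is not a classical imprinted gene. Many of these genes are strongly active in the fetal liver and are switched down in the weeks after birth, as growth slows and the liver takes on its adult work.

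A selection of 7 of the 20 probes, each 60 bases long, is shown 5′ to 3′ with the bases that the deposited files give, with mm8 coordinates from the same files. Those of H19 and Meg3 are shown because both are non-coding RNAs read by several probes, those of Dlk1 and Peg3 because these genes were higher in mutants, and that of Grb10 because its probes differed in how far they fell. The levels given below come from the first probe shown for H19 and Meg3 and from the one shown for Peg3. Those of Dlk1 and Grb10 come from brighter probes, A_51_P135618 and A_52_P115787, which are not shown. Probes whose 60 bases cover a longer stretch of the genome cross an intron. No letters are set in capitals in these probes.
H19 (A_51_P142196, chr7:142385254-142385313, minus strand): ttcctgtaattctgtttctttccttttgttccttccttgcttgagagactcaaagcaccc
H19 (A_52_P571350, chr7:142385503-142385650, minus strand, covering 148 bases): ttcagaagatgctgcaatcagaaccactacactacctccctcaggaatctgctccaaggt
Meg3 (A_51_P455997, chr12:110019275-110019334, plus strand): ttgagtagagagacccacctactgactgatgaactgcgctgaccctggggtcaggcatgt
Meg3 (A_52_P391505, chr12:109997571-110006056, plus strand, covering 8486 bases): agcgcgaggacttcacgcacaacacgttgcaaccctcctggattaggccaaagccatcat
Dlk1 (A_52_P177324, chr12:109908025-109908084, plus strand): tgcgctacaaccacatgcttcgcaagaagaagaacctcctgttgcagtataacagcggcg
Peg3 (A_51_P206037, chr7:6311815-6311874, minus strand): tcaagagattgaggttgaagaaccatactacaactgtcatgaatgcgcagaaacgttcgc
Grb10 (A_51_P187151, chr11:11833580-11834228, minus strand, covering 649 bases): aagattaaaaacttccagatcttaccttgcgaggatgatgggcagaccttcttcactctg

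Promoters of 8 of the 10 genes matched RefSeq windows on GRCm38.p6 that run from 250 bases before to 50 after a transcript start, 12 windows in all. The 250 bases before the start of Dlk1, Meg3 and Peg3, the 3 genes that were higher in mutants over both days, are shown 5′ to 3′ in the direction of the gene, with each CG, the pair of bases that carries DNA methylation, in capitals.
Dlk1 (chr12:109452573-109452822, plus strand): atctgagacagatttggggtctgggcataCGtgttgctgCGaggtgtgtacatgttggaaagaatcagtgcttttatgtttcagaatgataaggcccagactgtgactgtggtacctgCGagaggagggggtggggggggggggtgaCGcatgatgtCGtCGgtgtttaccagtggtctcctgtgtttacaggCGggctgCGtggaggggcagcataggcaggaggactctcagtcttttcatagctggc
Meg3 (chr12:109540746-109540995, plus strand): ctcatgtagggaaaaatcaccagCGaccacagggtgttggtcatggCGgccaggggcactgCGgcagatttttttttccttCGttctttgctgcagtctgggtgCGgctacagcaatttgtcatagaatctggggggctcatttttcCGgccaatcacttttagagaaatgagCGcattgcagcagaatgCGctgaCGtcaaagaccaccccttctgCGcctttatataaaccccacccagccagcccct
Peg3 (chr7:6730420-6730669, minus strand): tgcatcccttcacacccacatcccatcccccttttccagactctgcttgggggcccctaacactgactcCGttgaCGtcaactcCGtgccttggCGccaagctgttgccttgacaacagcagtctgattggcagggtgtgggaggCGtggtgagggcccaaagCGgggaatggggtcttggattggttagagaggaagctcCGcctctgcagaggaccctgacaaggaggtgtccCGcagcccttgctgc
These stretches held 8, 10 and 8 CG pairs. Over the full windows, 11 of the 12 held more CG pairs than the median of 7 over all 32841 windows of that length, from 45 at one start of Grb10 down to 1 at a second start of Meg3. TGGGAA, the core that the Notch partner RBPJ reads, was searched on both strands and found in 4 of the 12 windows, against 25.6% of all windows. They were 1 window of Ndn, the second of Meg3, and 2 of Mest that overlap almost completely and so hold the same match. TATAAA, the core of the TATA box, also searched on both strands, was found in 1 of the 12, the printed Meg3 window, against 13.6% of all windows. The printed windows of Dlk1, Meg3 and Peg3 held no TGGGAA.

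Values are log2 of the background-corrected signal divided by the 75th percentile of the array, so 0 is a signal at that percentile and 1 unit is a doubling. They compare a probe between arrays and not one gene with another. Differences are given with their standard error from limma's moderated test over all 4 groups, and a gene was called at a Benjamini-Hochberg adjusted p under 0.05 over all 15665 genes. The labels number the arrays of a group but do not name the animal or litter behind each, so the p-values reflect no more than the spread among these arrays, part of which may be technical. The 75th percentile signal of the arrays ran from 607.7 to 1302, and between 63.3% and 68.6% of spots were well above background. For each gene the brightest tested probe was used, and that probe was well above background and not saturated on all 11 arrays. Replicate 3 of the day 0 mutants stood apart, with 579 genes over 2-fold above and 467 over 2-fold below every other array, where no other array had more than 64 of either. At day 0 sex and genotype cannot be told apart, since sex-linked transcripts placed both controls as male and all 3 mutants as female, while each day 2 group held 1 male and 2 females. The groups each kept to 1 place on the slides, and so group and place cannot be told apart either. In whole liver, fewer cells of a type and less RNA per cell cannot be told apart.

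**Figure D1:**
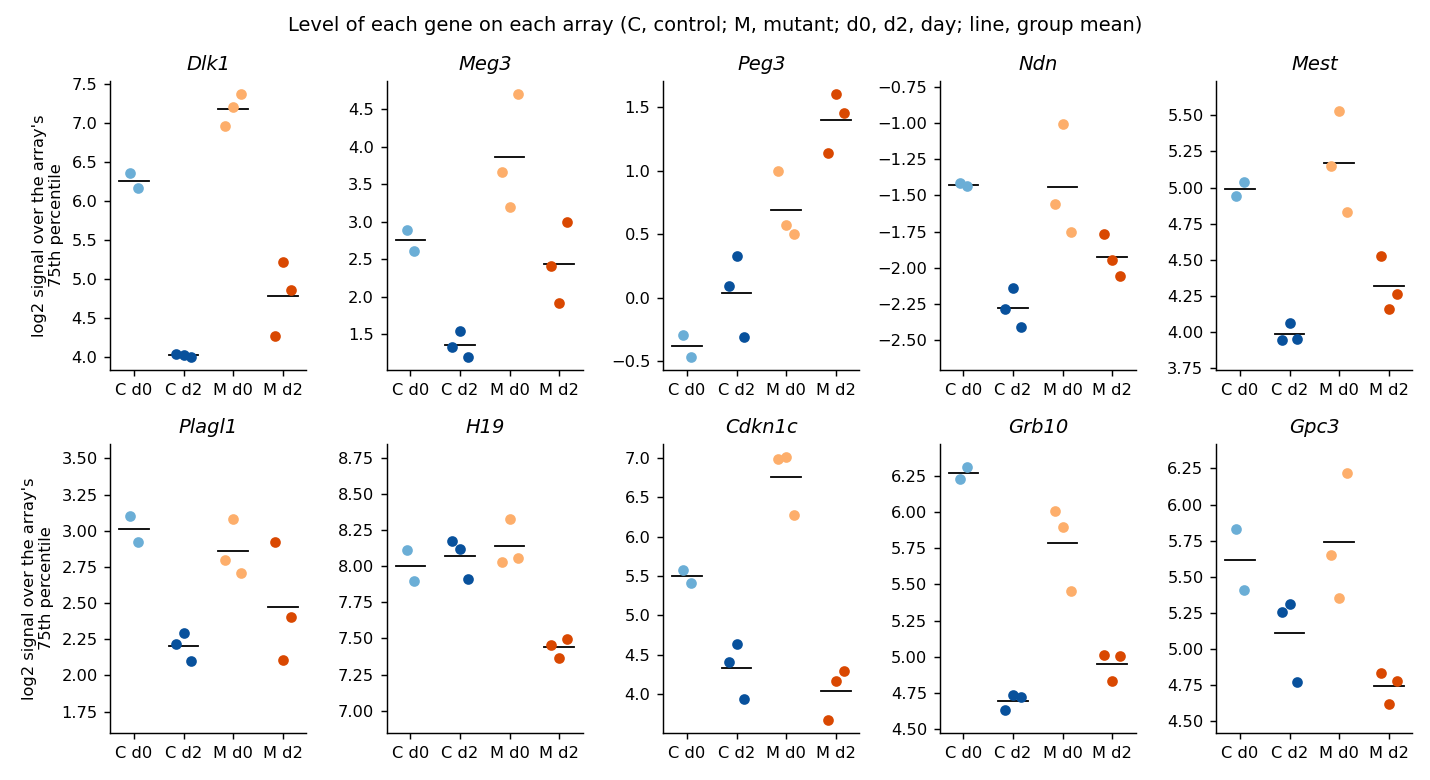
Level of each of the 10 genes on each of the 11 arrays, as log2 signal over the 75th percentile of the array, in controls (blue) and mutants (orange) at day 0 and day 2, with a line at the group mean and a separate vertical scale for each gene. Dlk1, Meg3, Ndn, Mest, Cdkn1c, Grb10 and Gpc3 were lower on every day 2 array than on every day 0 array of the same genotype. In controls 28.0% of all genes showed such a fall, and the share that did so in mutants or in both genotypes was not counted. Peg3 was higher on every mutant array than on every control array.

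The first comparison asked how these genes changed over the first 2 days of life. In controls Dlk1, Grb10, Cdkn1c, Mest and Ndn fell and none of the 10 rose, and in mutants Cdkn1c, Dlk1, Meg3, Gpc3, Mest, Grb10 and H19 fell while Peg3 rose. The 5 falls in controls stand beside a background of 5.76% of all genes called lower there. The 7 falls and 1 rise in mutants stand beside 11.2% called lower and 9.40% called higher. The median difference over the 10 genes was -0.93 in controls and -0.84 in mutants, where the medians of all genes tested were -0.02 and 4.35e-04. Between the day 0 and day 2 groups, 8 of the 10 genes had lower values with no overlap in controls, where 28.0% of all genes did. The 10 were chosen as genes that decline after birth, with earlier results of these data known. Falls beyond the share of all genes are therefore no independent result. Scaling each array to its median instead moved the median of all genes to 0.18 in both genotypes. With that scaling the calls over all genes in controls went from 873 higher and 902 lower to 1275 higher and 463 lower, and those in mutants from 1473 higher and 1750 lower to 2077 higher and 1192 lower. It left 2 of the 10 genes called in controls, Dlk1 and Grb10.

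**Figure D2:**
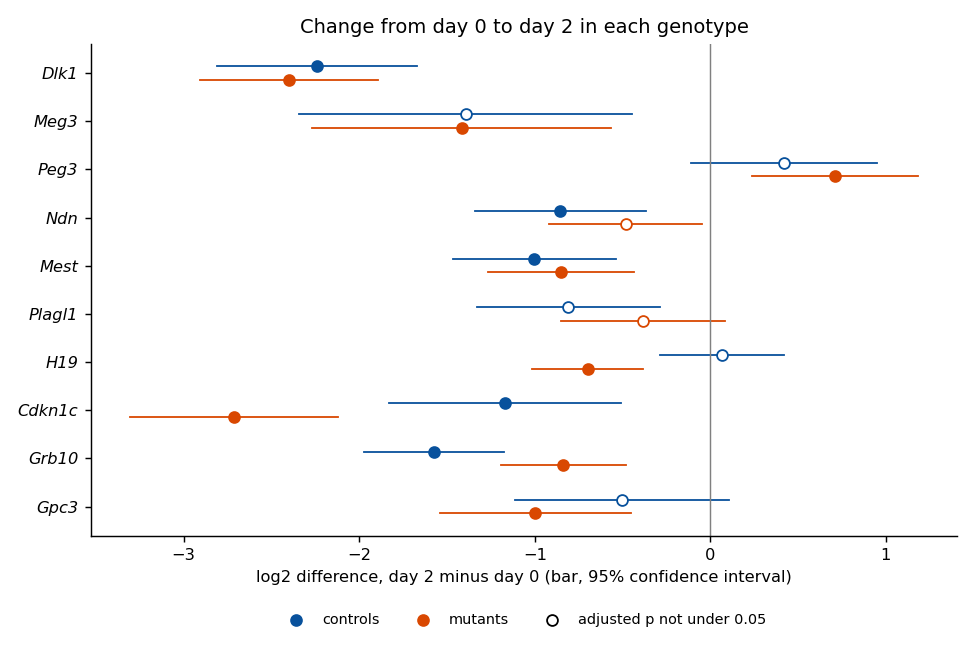
Difference between day 2 and day 0 for each gene, on the log2 scale with its 95% confidence interval, in controls (blue) and mutants (orange), where filled points passed at an adjusted p under 0.05 and open points did not. The points of 8 genes lie left of 0 in both genotypes, H19 only in mutants, and Peg3 lies right of 0 in both.

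The second comparison asked how mutant livers differed from control livers of the same age. Over both days Peg3, Dlk1 and Meg3 were higher in mutants and no gene was lower. The 3 rises stand beside a background of 8.88% of all genes called higher. At day 0 none of the 10 passed in limma's test, where 2.34% of all genes did in either direction. An unadjusted p under 0.05 was reached by 5 of the 10 and by 2373 of all 15665 genes. Those 5 were separated from the controls without overlap: Cdkn1c, Peg3, Dlk1 and Meg3 above, as 16.8% of all genes were, and Grb10 below, as 15.1% were. At day 2 Peg3 and Dlk1 were higher and H19 was lower, beside backgrounds of 9.74% called higher and 6.65% called lower. The median genotype difference over the 10 genes was 0.21 over both days and -0.05 over all genes tested.

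**Figure D3:**
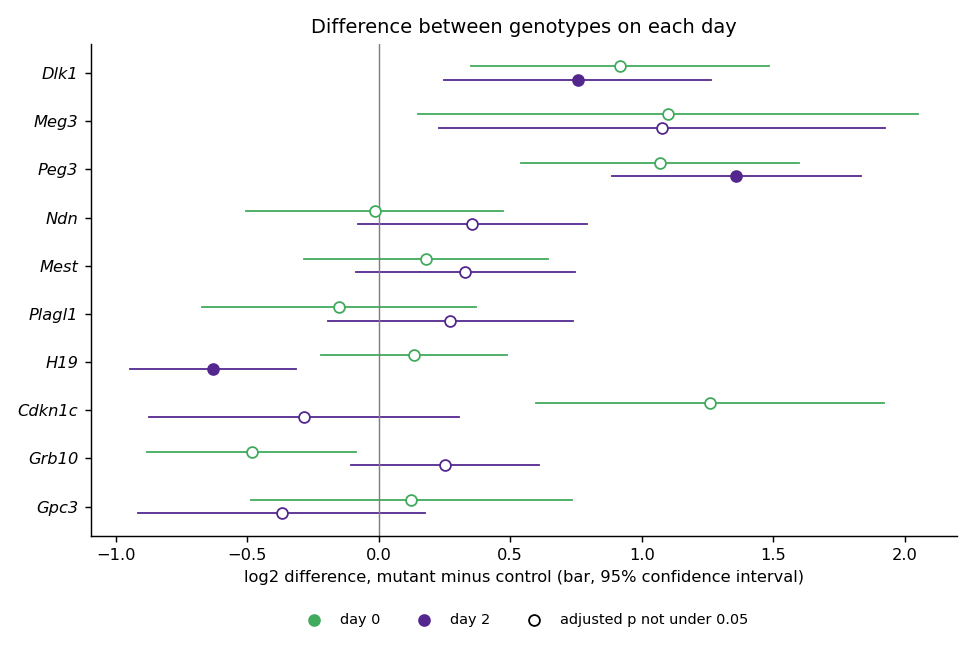
Difference between mutants and controls for each gene, on the log2 scale with its 95% confidence interval, at day 0 (green) and day 2 (purple), where filled points passed at an adjusted p under 0.05 and open points did not. Dlk1, Meg3 and Peg3 lie right of 0 on both days, while Cdkn1c lies at 1.26 on day 0 and at -0.28 on day 2.

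Dlk1 encodes a membrane protein related to the Notch ligands that marks immature liver cells. Its level was 6.36 and 6.16 in the day 0 controls and 4.04, 4.02 and 3.995 in the day 2 controls. Among mutants the values were 6.96, 7.20 and 7.37 at day 0 and 4.26, 5.21 and 4.86 at day 2. The 4 groups did not overlap, and their order from high to low was mutants and controls at day 0, then mutants and controls at day 2. From day 0 to day 2 Dlk1 fell by 2.24 ± 0.25 (SE; 4.73-fold; adjusted p = 0.00208) in controls and by 2.40 ± 0.23 (5.28-fold; adjusted p = 6.35e-04) in mutants, and both calls held under all 24 alternatives tried. Mutants were higher over both days by 0.84 ± 0.17 (adjusted p = 0.00999). By day the difference was 0.92 ± 0.25 at day 0 (adjusted p = 0.108), which did not pass, and 0.76 ± 0.23 at day 2 (adjusted p = 0.0494). The call over both days was lost without control day 0 replicate 2 (adjusted p = 0.0532) and with sex as a covariate (0.0829). The day 2 call was lost with slide, which equals the replicate number, as a block (adjusted p = 0.0614). It was also lost when any 1 of 9 arrays was left out, all except mutant day 0 replicate 3 and mutant day 2 replicate 1, with adjusted p between 0.0562 and 0.153, and in all it passed in 10 of 24 alternatives. Within slides 1, 2 and 3 the day 2 difference was 0.22, 1.19 and 0.86. The other Dlk1 probe, the one printed above, fell by 2.18 in controls and 2.62 in mutants, and its genotype difference over both days was 0.96 (adjusted p = 0.00709 over 24495 probes).

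Peg3, a zinc finger protein gene that in mice affects growth and maternal behaviour, followed another course. Its level was -0.30 and -0.47 in the day 0 controls and 0.09, 0.33 and -0.30 in the day 2 controls. In mutants it was 1.00, 0.57 and 0.50 at day 0 and 1.14, 1.60 and 1.45 at day 2. All 6 mutant arrays lay above all 5 control arrays, and the share of all genes with that separation was not counted. A weaker separation, mutants above controls of the same day on both days, was shown by 7.37% of all genes. Over both days Peg3 was higher in mutants by 1.21 ± 0.16 (2.32-fold; adjusted p = 0.00103), a call that held under all 23 alternatives tried. At day 2 the difference was 1.36 ± 0.21 (2.57-fold; adjusted p = 0.00274), and within slides 1, 2 and 3 it was 1.05, 1.27 and 1.76. At day 0 it was 1.07 ± 0.24 (adjusted p = 0.0522), which passed without control day 2 replicate 3 or without mutant day 0 replicate 3 (adjusted p = 0.0431 and 0.0325). From day 0 to day 2 Peg3 rose in mutants by 0.71 ± 0.21 (adjusted p = 0.0427), and in controls the difference was 0.42 ± 0.24 (adjusted p = 0.269), with overlapping groups. The rise in mutants is a borderline call. It was lost with slide as a block (adjusted p = 0.0543) and when any 1 of 8 arrays was left out, all except control day 2 replicates 2 and 3 and mutant day 0 replicate 1, with adjusted p from 0.0513 to 0.129, and it passed in 12 of 24 alternatives.

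Of the other paternally read genes, Mest fell after birth in both genotypes, Ndn fell in controls, and Plagl1 was called in neither. Their genotype differences did not pass. Mest, which encodes an enzyme-like protein of the hydrolase family, was at 4.94 and 5.04 in day 0 controls, 3.95, 4.07 and 3.95 in day 2 controls, 5.15, 5.53 and 4.83 in day 0 mutants and 4.53, 4.16 and 4.26 in day 2 mutants. It fell by 1.00 ± 0.21 in controls (adjusted p = 0.0189) and by 0.85 ± 0.18 in mutants (adjusted p = 0.0147), and day 0 and day 2 arrays did not overlap in either genotype. The call in controls was lost without either day 0 control or without control day 2 replicate 2 or 3 (adjusted p up to 0.135), and that in mutants without mutant day 2 replicate 2 or 3 (0.0550 and 0.0549), and the calls passed in 18 and 21 of 24 alternatives. Plagl1, a transcription factor that stops cell division, was at 3.103 and 2.92 in day 0 controls against 2.22, 2.29 and 2.10 at day 2. Mutant arrays read 2.80, 3.08 and 2.71 and then 2.92, 2.10 and 2.40, with 1 day 2 array among the day 0 values. Its differences of -0.81 in controls (adjusted p = 0.0533) and -0.39 in mutants (adjusted p = 0.200) did not pass. The control difference passed without mutant day 0 replicate 3, mutant day 2 replicate 1 or mutant day 2 replicate 2 (adjusted p = 0.0313 to 0.0451), and in 9 of 24 alternatives in all. Ndn, which encodes necdin, a growth suppressor best known from neurons, was at -1.42 and -1.43 in day 0 controls and -2.28, -2.14 and -2.41 in day 2 controls, and it fell by 0.85 ± 0.22 (adjusted p = 0.0370). In mutants it was at -1.56, -1.01 and -1.75 and then -1.77, -1.95 and -2.06, a difference of -0.48 ± 0.19 (adjusted p = 0.102) that did not pass. The call of Ndn in controls is a borderline one. It was lost with slide as a block (adjusted p = 0.0581) and when any 1 of 8 arrays was left out, all except those of the day 0 mutants, with adjusted p from 0.0536 to 0.178, and it passed in 9 of 24 alternatives. The Ndn difference in mutants passed without mutant day 0 replicate 3 (adjusted p = 0.0361).

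Meg3, a long non-coding RNA that lies downstream of Dlk1 and is read from the opposite parental copy, moved with it. The probes of the 2 genes lie 111 kb apart on chromosome 12 (mm8). Its level was 2.90 and 2.62 in day 0 controls and 1.34, 1.55 and 1.198 in day 2 controls. The mutants read 3.67, 3.20 and 4.699 at day 0 and 2.41, 1.92 and 2.99 at day 2. Mutants lay above controls of the same day without overlap on both days. Of the day 2 mutants, 1 array, at 2.99, lay above both day 0 controls, and the others lay below both. Over both days the difference was 1.09 ± 0.28 (2.13-fold; adjusted p = 0.0300). That call was lost with sex as a covariate (adjusted p = 0.145) and without either day 0 control, any day 2 control, mutant day 2 replicate 1 or mutant day 2 replicate 3 (0.0519 to 0.115), and it passed in 15 of 23 alternatives. The differences of 1.101 ± 0.42 at day 0 (adjusted p = 0.254) and 1.08 ± 0.38 at day 2 (adjusted p = 0.0836) did not pass, and the latter passed without mutant day 0 replicate 3 (0.0176). From day 0 to day 2 Meg3 fell in mutants by 1.42 ± 0.38 (adjusted p = 0.0299), and the difference of -1.39 ± 0.42 in controls did not pass (adjusted p = 0.0627). The call in mutants was lost without mutant day 2 replicate 1 or 2 (adjusted p = 0.0746 and 0.0967). The difference in controls passed with slide as a block (-1.60, adjusted p = 0.0416) and without mutant day 0 replicate 2 or 3 (0.0489 and 0.0120). All 4 Meg3 probes had higher means in mutants over both days, by 1.02 to 1.34, and the 2 printed above passed.

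H19, a non-coding RNA of the fetal liver that also carries a microRNA, was at 8.11 and 7.89 in day 0 controls and at 8.18, 8.12 and 7.91 in day 2 controls, with overlapping groups. The mutants read 8.03, 8.33 and 8.06 at day 0 and 7.46, 7.37 and 7.49 at day 2. The 3 day 2 mutants lay below all 8 other arrays, which themselves overlapped. H19 fell in mutants by 0.70 ± 0.14 (1.62-fold; adjusted p = 0.0110) and was lower in mutants than in controls at day 2, with a difference of -0.63 ± 0.14 (1.55-fold; adjusted p = 0.0154). At day 2 the difference within slides 1, 2 and 3 was -0.72, -0.75 and -0.42. Both H19 probes printed above passed in these comparisons, at -0.69 (adjusted p = 0.0116) and -0.53 (adjusted p = 0.0357) for the second. Both calls depended on the scaling: with quantile normalization, with or without normexp, and in the authors' deposited table, the fitted day 2 difference was between -0.12 and -0.16 and the fitted change in mutants between -0.26 and -0.27, and none passed. The day 2 call was also lost without control day 2 replicate 1 or 2 or mutant day 2 replicate 2 (adjusted p = 0.0584 to 0.0627).

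Cdkn1c encodes p57, an inhibitor of the cyclin-dependent kinases that drive cell division, and its probe lies 883 kb from that of H19 on chromosome 7 (mm8). Its level was 5.58 and 5.42 in day 0 controls and 4.41, 4.64 and 3.94 in day 2 controls. In mutants it was 6.98, 7.01 and 6.28 at day 0 and 3.68, 4.17 and 4.29 at day 2. The day 0 mutants were the highest group without overlap, and the day 2 groups of both genotypes overlapped. Cdkn1c fell in mutants by 2.71 ± 0.26 (6.56-fold; adjusted p = 6.60e-04), and within slides 1, 2 and 3 the difference was -3.31, -2.84 and -1.99. It fell in controls by 1.17 ± 0.29 (2.25-fold; adjusted p = 0.0357). The call in mutants held under all 24 alternatives tried. The call in controls was lost with slide as a block (adjusted p = 0.0668) and without any 1 control array, mutant day 2 replicate 2 or mutant day 2 replicate 3 (0.0514 to 0.189), and it passed in 14 of 24 alternatives. The genotype difference was 1.26 ± 0.29 at day 0 (adjusted p = 0.0625), which did not pass with all arrays and passed without mutant day 0 replicate 3 (adjusted p = 0.0156). Over both days it was 0.49 ± 0.20 (adjusted p = 0.131), which passed without that array (0.0302), and at day 2 it was -0.28 ± 0.26 (adjusted p = 0.507).

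Grb10, an adaptor that dampens signalling from the insulin and insulin-like growth factor receptors, was at 6.23 and 6.31 in day 0 controls and 4.63, 4.73 and 4.72 in day 2 controls. In mutants it was at 6.01, 5.89 and 5.45 at day 0 and 5.01, 4.83 and 5.002 at day 2. The 4 groups did not overlap: mutants lay below controls at day 0 and above them at day 2. Grb10 fell by 1.57 ± 0.18 in controls (2.97-fold; adjusted p = 0.00208) and by 0.84 ± 0.16 in mutants (1.79-fold; adjusted p = 0.00881), and both calls held under all 24 alternatives tried. The genotype differences of -0.48 ± 0.18 at day 0 (adjusted p = 0.229) and 0.25 ± 0.16 at day 2 (adjusted p = 0.319) did not pass. All 3 Grb10 probes fell in both genotypes. In mutants they fell by 0.84, 1.49 and 1.67, so the smaller fall of the brightest probe was not seen in the intron-crossing probe printed above, which fell by 1.64 in controls and 1.49 in mutants.

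Gpc3 encodes glypican-3, a proteoglycan found in the fetal liver that restrains growth signals at the cell surface. Its level was 5.83 and 5.41 in day 0 controls and 5.26, 5.31 and 4.77 in day 2 controls, and 5.65, 5.36 and 6.22 in day 0 mutants and 4.84, 4.62 and 4.78 in day 2 mutants. The arrays of the 2 days did not overlap within either genotype. Gpc3 fell in mutants by 1.00 ± 0.24 (1.99-fold; adjusted p = 0.0220), and in controls the difference of -0.50 ± 0.27 did not pass (adjusted p = 0.251). The call in mutants was lost without any 1 of the day 2 mutants (adjusted p = 0.0515 to 0.0715), and it passed in 19 of 24 alternatives. Its genotype differences of 0.12 at day 0 and -0.37 at day 2 did not pass.

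**Figure D4:**
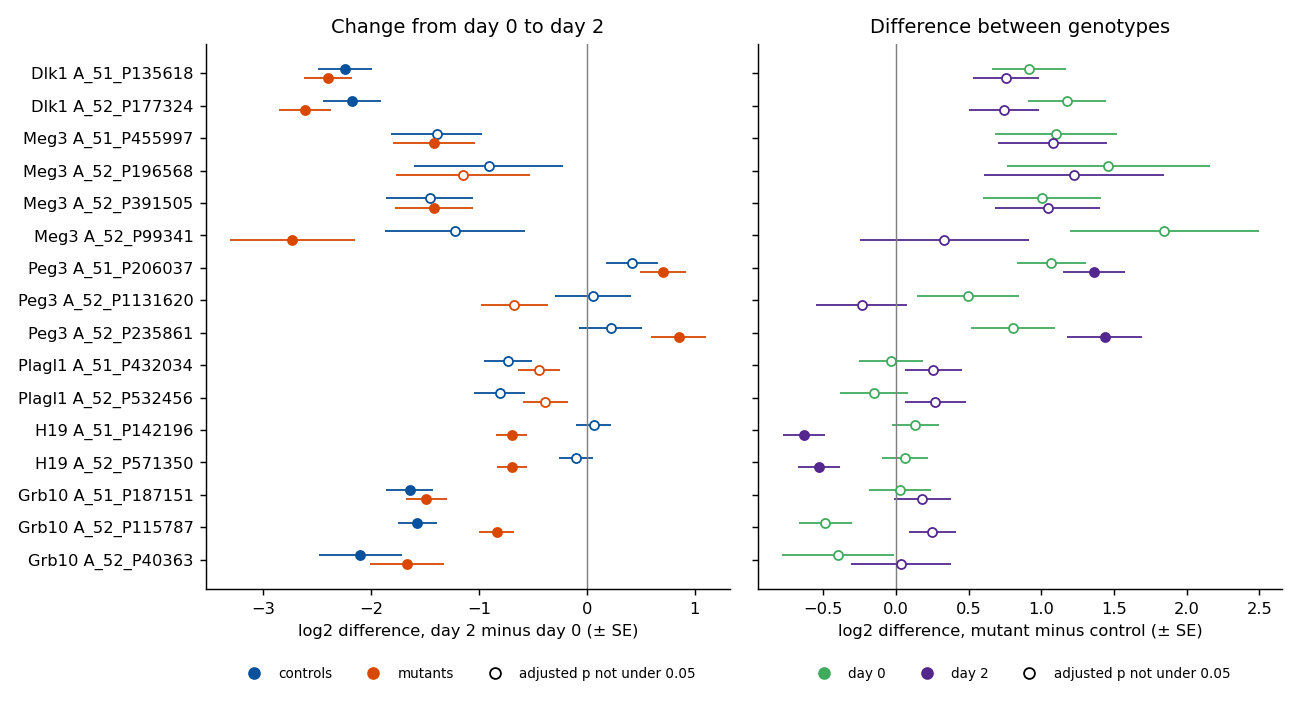
Differences of every probe of the 6 genes with several probes, on the log2 scale with its standard error, from day 0 to day 2 in controls and mutants (left) and between genotypes at day 0 and day 2 (right), where filled points passed at an adjusted p under 0.05 over 24495 probes. Probes of Dlk1, Meg3, H19 and Grb10 lie on the same side of 0 for the change in mutants, and probe A_52_P1131620 of Peg3 lies apart from the other 2 Peg3 probes.

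The probes of a gene mostly went together. An exception was Peg3, where A_51_P206037 and A_52_P235861 passed at day 2 with differences of 1.36 and 1.44, while A_52_P1131620 was at -0.23 (adjusted p = 0.674). That probe was designed on another transcript record and was dim, at levels from -6.11 to -4.53, and not well above background on 3 of the 11 arrays. When the Peg3 probes were averaged, the change in mutants was 0.30 and did not pass (adjusted p = 0.186). Meg3 probe A_52_P99341 also stood apart, with a day 2 genotype difference of 0.33 (adjusted p = 0.75) where the probe used was at 1.08. It fell by 2.73 in mutants and by 1.22 in controls. At day 0 the Grb10 genotype difference was -0.48 for the probe used and 0.03 for A_51_P187151, and neither passed. Both Plagl1 probes were lower at day 2 in both genotypes, and none passed.

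The third comparison asked whether the change after birth differed between genotypes. None of the 10 genes passed in limma's test of that difference, where 0.274% of all genes did. An unadjusted p under 0.05 was reached by 3 of the 10 and by 2296 of all 15665 genes. For Cdkn1c the change in mutants minus that in controls was -1.54 ± 0.39 (95% confidence interval -2.43 to -0.66; adjusted p = 0.148). For H19 the difference of changes was -0.76 (-1.24 to -0.29; adjusted p = 0.172) and for Grb10 it was 0.74 (0.20 to 1.27; adjusted p = 0.217). For Dlk1 it was -0.16 (-0.92 to 0.60) and for Meg3 -0.02 (-1.30 to 1.25). Cdkn1c passed without mutant day 0 replicate 3 (adjusted p = 0.0432), and with array weights both Cdkn1c and H19 passed (0.0172 and 0.0442). A fall that passed in one genotype and not in the other, as for H19, Gpc3, Meg3 and Ndn, is therefore not shown to differ between them.

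Neighbours in the same imprinted clusters were drawn from a list of 64 other imprinted genes, of which 60 were on the array and 51 were tested. In the cluster of Dlk1 and Meg3, the non-coding RNAs Rian and Mirg were also higher in mutants over both days, by 1.68 (3.20-fold; adjusted p = 0.00109) and 1.56 (2.95-fold; adjusted p = 0.00108). Rian was at 0.47 and 0.03 in day 0 controls, -1.27, -0.53 and -0.63 in day 2 controls, 2.33, 1.403 and 1.67 in day 0 mutants and 1.05, 0.65 and 1.27 in day 2 mutants, so all mutant arrays lay above all control arrays. Mirg fell after birth by 2.16 in controls (adjusted p = 0.00470) and by 0.93 in mutants (adjusted p = 0.0410), calls that passed in 23 and 12 of 24 alternatives. Next to Peg3, Zim1, another zinc finger gene, was well above background on all 6 mutant arrays and on 1 of the 5 control arrays. Over both days its fitted difference of 2.01 (adjusted p = 0.00435) is therefore read mostly against dim signal, and it lay between 0.52 and 2.17 over 22 alternatives, of which 21 passed. Both day 0 controls were dim, so the day 0 difference is at least 4.90-fold (adjusted p = 0.0427), the mean of the mutants against the higher of the dim signal and the lowest signal well above background on each control array, and that call passed in 8 of 23 alternatives. Zim1 was kept for testing only through the mutant groups, where it is high, so these p-values are no separate support. Igf2, the growth factor gene beside H19 that is read from the opposite parental copy, was at 8.44 and 8.51 in day 0 controls, 8.97, 8.70 and 8.66 in day 2 controls, 8.23, 8.40 and 8.27 in day 0 mutants and 8.04, 7.99 and 8.13 in day 2 mutants. It was lower in mutants over both days, with a difference of -0.45 (1.36-fold; adjusted p = 0.0141), and at day 2, with -0.72 (1.65-fold; adjusted p = 0.00573), and these calls passed in 17 of 23 and 21 of 24 alternatives, with a day 2 difference of -0.15 at its smallest. Igf2r, the receptor that clears the Igf2 protein, differed by 0.50 (adjusted p = 0.132) and did not pass.

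In the cluster of Cdkn1c, Phlda2, which limits placental growth, was higher in mutants over both days by 1.403 (adjusted p = 0.0161), and Osbpl5 was higher by 0.67 (adjusted p = 0.00674), with 1.30 at day 2 (adjusted p = 9.12e-04) and 0.03 at day 0. Cobl, the actin regulator gene beside Grb10, was higher by 1.90 over both days (3.73-fold; adjusted p = 5.81e-04) where Grb10 was not called. The clusters were assigned after results were known. Over the whole list 11 of 51 rose and 3 fell in mutants over both days, where 8.88% of all genes were called higher and 7.04% lower. At day 2, 10 rose and 3 fell, beside 9.74% of all genes higher and 6.65% lower. At day 0, 4 rose and none fell, beside 1.62% higher. After birth 4 rose and 4 fell in controls, beside 5.57% of all genes higher and 5.76% lower. In mutants 4 rose and 3 fell after birth, beside 9.40% higher and 11.2% lower. The median difference of the list was -0.08 in controls, where that of the 10 genes was -0.93. The 10 were chosen as genes that decline after birth and the list was not, so these medians are not a fair comparison. In limma's test of the difference in change none of the 51 passed. An unadjusted p under 0.05 was reached by 9 of the 51 and by 2296 of all 15665 genes.

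Markers of some cell types in the liver also differed between the groups. Over both days 7 of 9 tested bile duct markers were higher in mutants, 4 of 11 hepatocyte markers, 5 of 11 erythroid markers and 4 of 10 macrophage markers were lower, and 1 of 15 stellate cell and mesenchyme markers was higher. Of 10 fetal hepatocyte markers 5 were higher and 1 lower, and of 12 endothelial markers 1 was higher and 2 lower. These counts stand beside 8.88% of all genes called higher and 7.04% called lower. The summed level of the bile duct markers was 3.33 to 4.66 over the controls of both days and 6.55 to 8.42 over the mutants. That of the stellate cell and mesenchyme markers lay between 6.17 and 6.23 in day 0 controls, 5.04 and 5.26 in day 2 controls, 5.75 and 7.09 in day 0 mutants and 5.47 and 6.54 in day 2 mutants, so the day 2 mutants lay above the day 2 controls, as they did for Dlk1 and Meg3. The day 2 mutants, the group in which H19 was lowest, were also lowest without overlap in the summed level of 3 lists. Erythroid markers were at 5.70 to 6.55 there against 7.43 to 8.23 on all other arrays, hepatocyte markers at 10.62 to 10.73 against 11.09 to 11.58, and fetal hepatocyte markers at 10.38 to 10.54 against 10.64 to 11.19. A sum adds unlogged levels, so the brightest genes weigh most. The hepatocyte and fetal hepatocyte lists share Ahsg, so their sums are not separate. The fetal list also holds Trf, Krt8 and Krt18, and how far its genes are limited to fetal cells was not tested. Gene by gene at day 2, 4 of 10 fetal hepatocyte markers were called higher in mutants and 3 lower, with a median difference of 0.53. Of 15 stellate cell and mesenchyme markers, 4 were called higher at day 2 and none lower. Their median difference was 0.68 at day 2 and -0.06 at day 0. The shares of all genes at day 2 were 9.74% higher and 6.65% lower. The sums were not tried with other scalings. No tested marker of these lists was below background on all arrays of a group, hepatocyte markers included. Their part in the differences of the 10 genes was not tested.

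For each gene, the genes whose centred levels over the 11 arrays lay closest were found among 15444 named genes outside the list, by the root mean square difference in log2 units. For Dlk1 these were Slc2a1 (0.41), Stbd1 (0.42) and Ihh (0.44), where Dlk1 itself had an SD of 1.35 over the arrays. For Meg3 they were Appl2 (0.32), Mrg1 (0.32) and Asb4 (0.36), the last itself imprinted, and for Peg3 Fzd9 (0.17), Kansl1l (0.19) and Serf1 (0.20). For Cdkn1c they were Dkk1 (0.38), 2010109A12Rik (0.41) and Pgam2 (0.42). For H19 they were Ppil4 (0.09), Serf2 (0.11) and Fbxo7 (0.12), and for Grb10 9130221H12Rik (0.15), Tor4a (0.15) and Zfp747 (0.18). The 3 closest to each of Gpc3, Mest, Plagl1 and Ndn lay at 0.13 to 0.18. No gene in the list of 10 was counted among these.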

How the data were processed

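Total RNA from newborn livers was labelled with Cy3 and hybridised to 11 Agilent whole mouse genome arrays (design 014868, Feature Extraction 9.5.3.1), per the file headers. The deposited scanner files hold spot intensity, background-subtracted by the scanner software, per the file headers, and that processed signal was used. The authors' deposited table of log2 values, which per the submitters' processing notes was made with RMA, was used only as an alternative; its centring and settings are not given in the sources used here, and its column medians lay near 7.6. Probes were named through RefSeq accessions, synonyms or the printed symbol, and 6801 of 41174 had no symbol.

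Each array was scaled as log2 of signal over its 75th percentile. Spots of a probe were averaged, dim probes removed, and the brightest tested probe kept for each gene. All 4 groups were fitted together with limma 3.58.1 in R 4.3.3 (lmFit, eBayes; 7 residual and 2.388 prior degrees of freedom), with Benjamini-Hochberg adjustment over 15665 genes. The number of arrays limits the precision. In simulated data of this size the fit recovered 42 of 100 changes of 1 log2 unit and 75 of 100 of 2 units in controls, and 49 and 84 of 100 in mutants. Only 100 of 15454 genes were changed there by each amount, far fewer than were called in the real changes after birth. The adjusted threshold depends on that number, so these recoveries need not hold for the real data.

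The members, lists and clusters were chosen with earlier results of these data known. Named were all 10 genes, Igf2 and Igf2r, other imprinted genes called in a comparison (up to 6 by p, and those in a cluster of the 10), and the 3 genes with the nearest profile. Alternatives were other background corrections, scalings, filters and probe rules, array weights, a trend with robust fit, sex as covariate, slide as block, 2-group fits and leaving out each array. Same-numbered arrays, which share a slide, deviated together for the day 2 groups (r = 0.283, 0.225 and 0.260), and for other pairs of groups r was -0.03 to 0.124.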

Additional observations from a re-analysis of the deposited data

How the results depend on the processing

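Over the alternatives, the falls of Dlk1 and Grb10 in both genotypes, that of Cdkn1c in mutants, and the rises of Peg3 in mutants over both days and at day 2 kept their direction and their call, and 1250 of 1420 values of single genes and settings kept both. The number of the 10 genes called in the change in controls, 5, became 2 with median scaling and 3 with no filter on dim probes or with sex as a covariate. In mutants the 8 calls became 4 with only the groups compared. Over both days the 3 genotype calls became 5 with array weights and 1 with sex as a covariate. At day 0 the 0 calls became 2 with array weights or with a trend and robust fit, and 1 with the authors' table, with normexp at either scaling, with quantile normalization or with only probes well above background on all arrays. The 0 calls in the difference of changes became 2 with array weights. Leaving out 1 array at a time gave 2 to 7 calls in controls, 4 to 8 in mutants, 0 to 1 in the difference of changes, 1 to 4 over both days, 0 to 2 at day 0 and 1 to 4 at day 2. With the replicate number, which is the slide, as a block, the counts of the 10 genes were 4 in controls, 7 in mutants, 3 over both days, 0 at day 0 and 2 at day 2; blocked values that changed a call of one of the 10 genes stand beside it.

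Of the 51 other imprinted genes, 8 were called in controls, which became 20 with array weights, 5 with the authors' table, 3 with no filter or with the replicate block, and 2 with sex as a covariate. In mutants 7 became 14 with array weights and 4 with no filter, with only the groups compared or with sex as a covariate. At day 0 the 4 became 10 with array weights, 2 with the authors' table, the mean of a gene's probes, normexp at the 75th percentile or probes well above background on all arrays, 1 with the replicate block, and 0 with no filter, only the groups compared or sex as a covariate. Over both days 14 became 7 with sex as a covariate. In the difference of changes 0 became 2 with array weights and 1 with the mean of a gene's probes. Leaving out 1 array gave 0 to 17 in controls, 4 to 9 in mutants, 0 to 6 at day 0, 6 to 14 at day 2, 8 to 18 over both days and 0 to 1 in the difference of changes.

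Signs turned only for values that had not been called. In the difference of changes Dlk1 was 0.30, 0.29 and 0.30 with the authors' table, normexp with quantile and quantile normalization and 0.25 with sex as a covariate. Meg3 was 0.37 with array weights, 0.0553 with the authors' table, 0.0603 and 0.0604 with normexp and plain quantile normalization, 0.18 with the replicate block and 0.12 with sex as a covariate, and Mest was -0.00492 with array weights. H19 in controls was -0.0595 with the authors' table, -0.0195 with the mean of its probes, -0.14 and -0.15 with normexp and plain quantile normalization and -0.00525 with sex as a covariate. At day 0 H19 was -0.0216 with quantile normalization, Gpc3 -0.0756 with array weights and -0.0656 with sex as a covariate, and Plagl1 0.11 with sex as a covariate. Ndn at day 0 was 0.10 with array weights, 0.00788 and 0.00904 with normexp at the 75th percentile and with quantiles, 0.0799 with the replicate block and 0.00320 with sex as a covariate. Over both days Gpc3 was 0.004 with the authors' table and 0.0191 with normexp and quantiles, and Grb10 0.00772 with the latter. Leaving out 1 array gave -0.38 to 0.10 for Dlk1, -0.35 to 0.40 for Meg3 and -0.0175 to 0.33 for Mest in the difference of changes, and -0.0443 to 0.17 for H19 in controls. At day 0 it gave -0.12 to 0.33 for Gpc3, -4.05e-06 to 0.35 for Mest and -0.23 to 0.14 for Ndn, and over both days -0.0509 to 0.15 for Plagl1. The cause of these changes was not tested. With 2 or 3 arrays a group, changes can be missed. The simulated data recovered 42 of 100 changes of 1 log2 unit in controls and 49 of 100 in mutants. Far fewer genes were changed there than were called here, so these recoveries need not hold for the real data.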

Other observations

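Outside the clusters of the 10 genes, other imprinted genes also differed between genotypes. Rasgrf1, which encodes an activator of Ras, was not well above background on any control array and was measured on all mutant arrays, with a difference of at least 6.92-fold among the day 0 livers (adjusted p = 0.0442) and at least 51.7-fold among those of day 2 (adjusted p = 1.02e-04). The day 0 call passed in 8 of 23 alternatives and the day 2 call in all 23. Rasgrf1 was kept for testing only through the mutant groups, where it is high, so these p-values are no separate support. It rose further in mutants from day 0 to day 2, by 2.91 on the log2 scale (adjusted p = 0.0120). Slc22a2, an organic cation transporter gene, was measured on all arrays of day 2 and was higher in mutants there by 2.30 (adjusted p = 0.0170). Both day 0 controls were dim for it, and its day 0 difference of at least 3.27-fold did not pass (adjusted p = 0.0582). Slc22a18, a transporter gene in the cluster of Cdkn1c, rose after birth in both genotypes, by 1.47 in controls (adjusted p = 0.00673) and 1.36 in mutants (adjusted p = 0.00417), where Cdkn1c fell in both.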
